A study of Homo sapiens with 12 samples.

Results

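The nuclear genes for the subunits of oxidative phosphorylation were followed in breast epithelial cells that had received a mimic of hsa-miR-140-3p, a mimic of 5’isomiR-140-3p or a control mimic. Members were chosen by symbol, as genes named NDUFA, NDUFB, NDUFC, NDUFS, NDUFV, UQCR, COX4I, COX5, COX6, COX7 or ATP5 together with SDHA to SDHD, CYC1 and COX8A, and assembly factors of the NDUFAF series, ATP5IF1, an antisense RNA and pseudogenes were left out. The rule found 81 genes with 108 probes, of which 36 belong to complex I, 3 to complex II, 9 to complex III, 16 to complex IV and 17 to complex V. Of these, 73 genes lay above background on at least 2 arrays and were tested among 10491 genes in all. SDHB and UQCRFS1 were not analysed here. NDUFA4 is now named COXFA4 and therefore falls outside the rule.

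Oxidative phosphorylation makes ATP in the inner mitochondrial membrane. Complex I oxidizes NADH and complex II oxidizes succinate, both pass electrons to ubiquinone, complex III hands them to cytochrome c, and complex IV reduces oxygen. Complexes I, III and IV pump protons, and complex V, the ATP synthase, lets them flow back to drive ATP synthesis. Most subunits are encoded in the nucleus and imported, while a few core subunits are encoded by mitochondrial DNA, for which no probe was paired with a gene here.

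Illumina HumanHT-12 v4 BeadChips gave the messenger RNA levels 48 h after the cells were transfected, with each mimic at 30 nM. MCF10A is a non-tumorigenic breast epithelial line and MDA-MB-231 is a triple-negative breast cancer line. Each line was measured on 2 arrays with hsa-miR-140-3p, on 2 arrays with 5’isomiR-140-3p, and on 1 array each with mimic-ctrl1 and mimic-ctrl2, which together form the control group of that line, so that 12 arrays fall into 6 groups of 2. The mimic arrays are described as biological replicates. The series' design text gives different makers for the control mimics (Dharmacon) and the microRNA mimics (Exiqon), while the methods name Ambion, so that maker and mimic cannot be told apart in comparisons with controls. The control arrays of a line thus differ in the mimic they carried, and all groups share transfection with a lipid reagent. In a lysate of a whole culture, a change in the RNA of each cell and a change in the share of cells that express a gene cannot be told apart.

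Both microRNAs come from the same arm of the precursor MIR140, and 5’isomiR-140-3p begins 1 base further downstream. They are shown because that shift replaces the seed, bases 2 to 8, which is printed in capitals and which pairs with target messenger RNAs. The RefSeq sequences on GRCh38.p14, plus strand, are as follows.
hsa-miR-140-3p, chr16:69933142-69933162: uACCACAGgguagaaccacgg
5’isomiR-140-3p, chr16:69933143-69933164: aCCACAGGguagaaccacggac
The seeds are thus ACCACAG and CCACAGG. The canonical form has 21 bases, and the isoform has 22 because it also ends 2 bases further downstream.

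Levels below are log2 values of background-corrected intensities after quantile normalization over all arrays, and a difference of 1 on this scale is a factor of 2. Between 13005 and 14848 probes per array lay above background. Over the tested genes, arrays of the same group correlated at 0.981 to 0.995 and arrays of different lines at 0.817 to 0.848. The basal or epithelial markers KRT5, KRT14, CDH1 and CDH3 lay above background on all 6 MCF10A arrays and on 0 of 6 MDA-MB-231 arrays. ITGB4 and LAMB3 of the same list did not separate the lines in this way, as both lay above background on every array. Their means were 8.92 and 10.63 for MCF10A, against 8.22 and 10.01 for the other line. ESR1, PGR and the leukocyte markers PTPRC and CD3E were at background on every array. ERBB2, and ALB from the list of other cell types, lay above background on every array. PECAM1, also a marker of other cell types, did so on 3 MDA-MB-231 arrays and 2 MCF10A arrays. ZEB1 and SPARC, listed as mesenchymal markers of MDA-MB-231, were at background in both lines, while VIM, AXL, CDH11 and MSN averaged higher in MDA-MB-231. CAV1, also on the mesenchymal list, differed little, with a mean of 12.86 there against 12.7 for MCF10A. A gene was called when its adjusted p was under 0.05 and its level lay under 65% of the reference or more than 65% above it, and genes with an adjusted p under 0.05 alone are given separately. All adjusted p-values come from limma with Benjamini-Hochberg adjustment over the 10491 genes, and with 2 arrays in a group they measure the spread between these arrays only.

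In MCF10A, transfection of 5’isomiR-140-3p was accompanied by slightly higher levels of most subunit genes, spread over all 5 complexes. Of the 73 members tested, 64 lay above 0, which is 87.7% against 50.6% of all genes, and the median difference from control mimics was 0.182 against 0.005 over all genes. Only SDHA and ATP5MK were called higher, against a background of 5.25% of all genes, and 0 members were called lower, against 7.34%. With the adjusted p alone, 9 members were higher and 0 lower, against 9.9% and 10.9% of all genes. The number of members that passed is therefore near or below the background, and what sets these members apart from the median of all genes is a small difference of like sign. It was not particular to the subunits. Among the related genes described below, the median was 0.178 for electron carriers and their partners, with 13 of 18 above 0. It was 0.202 for the tricarboxylic acid cycle, with 12 of 15 above 0, but 0.024 for assembly factors, with 25 of 49 above 0. For 48 members, or 65.8%, both 5’isomiR-140-3p arrays lay above both control arrays, against 30.7% of all genes, and for 6 members, or 8.22%, both lay below, against 30.0%. The median over the members was 0.203 on the first 5’isomiR-140-3p array and 0.193 on the second, relative to the mean of the control arrays, which themselves lay at 0.018 and -0.018. Among the 1461 genes at least as bright as the lower quartile of the members the median difference was 0.012, and 51.6% lay above 0.

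Differences between the complexes were not tested. The median difference was 0.176 for the 33 tested genes of complex I, 0.419 for the 3 of complex II, 0.181 for the 9 of complex III, 0.215 for the 11 of complex IV and 0.185 for the 17 of complex V. In complex I 30 of 33 genes lay above 0, from -0.098 for NDUFA7 to 0.923 for NDUFB5, and NDUFA3, an accessory subunit of the membrane arm, was the only one with an adjusted p under 0.05, at 0.37 ± 0.12 (SE, adjusted p = 0.05 after rounding). In complex III 8 of 9 genes lay above 0, from -0.166 for UQCR11 to 0.43 for UQCRC2, and none passed. In complex IV 10 of 11 genes lay above 0, from -0.378 for COX7A2L to 0.456 for COX7B. In complex V 14 of 17 genes lay above 0, from -0.182 for ATP5F1B to 0.741 for ATP5MK.

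**Figure D1:**
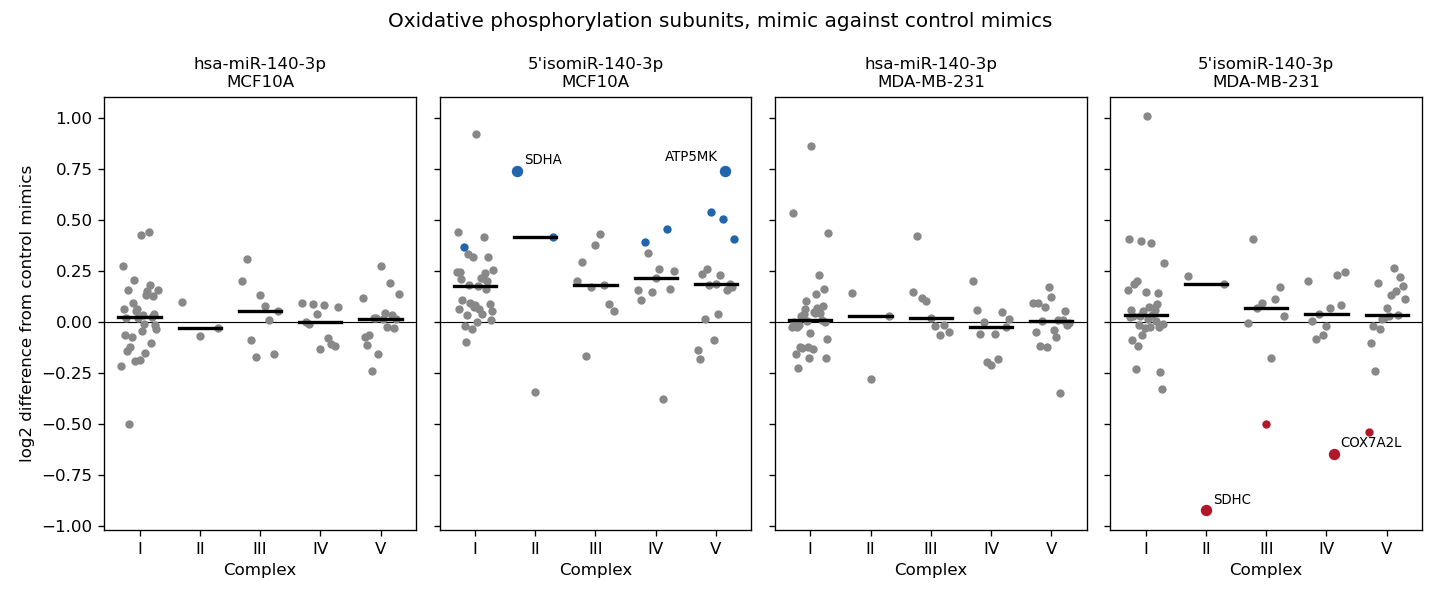
Log2 difference from the control mimics for each of the 73 tested subunit genes, by complex, for each mimic and line. Each point is 1 gene, black bars are medians, colour marks an adjusted p under 0.05 (blue higher, red lower), and larger named points are called. The points of 5’isomiR-140-3p in MCF10A lie mostly above 0, with a median of 0.182, whereas those of hsa-miR-140-3p are centred near 0.

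SDHA, the flavoprotein of complex II that oxidizes succinate, stood at 9.49 and 9.64 on the control arrays of MCF10A, at 9.62 and 9.71 with hsa-miR-140-3p and at 10.37 and 10.25 with 5’isomiR-140-3p. Both 5’isomiR-140-3p arrays lay above the other 4 arrays of the line, and SDHA rose 1.67-fold (log2 difference 0.74 ± 0.12, SE, adjusted p = 0.0022). A second SDHA probe gave 0.55 ± 0.22 (SE, adjusted p = 0.11). SDHD, a membrane anchor of complex II that takes part in ubiquinone binding, stood at 10.50 and 10.58 under control mimics and at 11.04 and 10.88 with 5’isomiR-140-3p. SDHD was thus higher with the adjusted p alone (0.42 ± 0.12, adjusted p = 0.032).

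The third measured subunit of complex II went the other way. SDHC, the other membrane anchor, stood at 10.21 and 10.12 under control mimics in MCF10A and at 9.89 and 9.75 with 5’isomiR-140-3p, a difference of -0.34 ± 0.17 that did not pass (adjusted p = 0.18). Differences among the subunits of complex II were not tested.

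In complex V the gene with the largest difference was ATP5MK, a small membrane subunit at the interface of ATP synthase dimers. It stood at 9.59 and 9.44 under control mimics, at 9.71 and 9.69 with hsa-miR-140-3p and at 10.20 and 10.31 with 5’isomiR-140-3p, and it rose 1.67-fold over control mimics (0.74 ± 0.15, adjusted p = 0.007). ATP5MC2, which encodes the ring-forming subunit c, ATP5MJ, another small membrane subunit, and ATP5PO, which encodes the stalk subunit OSCP, were higher with the adjusted p alone, at 0.54, 0.51 and 0.41 (adjusted p = 0.018, 0.019 and 0.042). In complex IV this held for the accessory subunits COX7B and COX5B. COX7B stood at 10.65 and 10.75 under control mimics and at 11.18 and 11.13 with 5’isomiR-140-3p (0.46 ± 0.12, adjusted p = 0.021), and COX5B stood at 12.64 and 12.64 and then at 13.08 and 12.99 (0.39 ± 0.12, adjusted p = 0.037). In each of these genes the 5’isomiR-140-3p arrays lay above both control arrays.

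The call of SDHA ended when the first control array or the first 5’isomiR-140-3p array of MCF10A was left out, and that of ATP5MK when the second control or the second 5’isomiR-140-3p array was left out. Both genes stood at 167% of the control level, close to the fold limit. With each array left out in turn, whether or not the call ended, their differences ranged from 0.666 to 0.821 for SDHA and from 0.666 to 0.817 for ATP5MK. Leaving out arrays in turn gave a median over the members of 0.182 to 0.203, and other ways of normalizing, filtering and joining probes gave 0.175 to 0.199.

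Some sequence motifs were more frequent at the starts of subunit genes than at all promoters, each in a minority of members. The choice of members did not use these motifs. The promoters set beside them were not matched to the members in expression or base composition. Promoter sequences of 300 bases, from 250 bases before to 50 bases after the gene start, were matched in the RefSeq table for 66 of the 81 members, with the start listed first where a gene has several. The core of the element bound by NRF1, a transcription factor of respiratory genes, was searched as GCATGCGC on both strands and was held by 12 of 66 members, or 18.2%, against 3.27% of 27305 promoters. The core of ETS factors such as GABPA, CCGGAAG, was held by 19 members, or 28.8%, against 10.7%, and that of YY1, AAGATGGC, by 10 members, or 15.2%, against 3.03%. The element of estrogen-related receptors, TCAAGGTCA, was held by 1 member, or 1.52%, against 0.359%. The motifs can share letters, since CCGGAAG ends and AAGATGGC begins with AAG, and the NRF1 and ETS cores can each match both strands of 1 site. Of the 16 members with an adjusted p under 0.05 in a contrast with a mimic, 15 had a promoter sequence. Of these, 4 held the NRF1 core, 4 the ETS core, 4 the YY1 core and 1 the element of estrogen-related receptors. A match is a description of the letters and was not tested as a site.

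Stretches of 30 bases before the gene start of 4 members that were higher in MCF10A cells with 5’isomiR-140-3p are shown as examples, 5′ to 3′ on the strand of the gene in GRCh38.p14, with the searched motif in capitals. They were picked because they hold a motif, and SDHA, COX7B and ATP5MJ, also higher there, held none of the searched motifs. The first 3 hold the NRF1 core and the last holds the ETS core on the opposite strand.
ATP5MC2, chr12:53676105-53676134, minus strand: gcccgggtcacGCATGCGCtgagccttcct
COX5B, chr2:97645915-97645944, plus strand: ggcagagctggGCATGCGCaatttccgccc
SDHD, chr11:112086752-112086781, plus strand: cagctgtgtttGCGCATGCgcgacgggtgt
ATP5MK, chr10:103396620-103396649, minus strand: ccagtgcaattCTTCCGGaagtgtgggcgg
In SDHD and ATP5MK the capitals mark a match on the opposite strand, and the same site also matched on the strand of the gene. The motifs begin 40 bases before the start of ATP5MC2 that the table lists first, which lies inside the gene as other transcripts start further upstream, 136 before COX5B, 110 before SDHD and 163 before ATP5MK.

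In MDA-MB-231 the members did not show the same displacement with 5’isomiR-140-3p, and the genes that passed were lower. The median difference was 0.042 against 0.009 over all genes, with 49 of 73 members above 0, or 67.1% against 51.2% of all genes. SDHC and COX7A2L were called lower, against a background of 5.09% of all genes, and 0 members were called higher, against 2.41%. With the adjusted p alone 4 members were lower, against 6.86%, and 0 higher, against 4.66%. Both 5’isomiR-140-3p arrays lay above both control arrays for 22 members and below them for 11, or 30.1% and 15.1%, against 25.8% and 25.5% of all genes. The medians of the complexes were 0.034 for complex I, 0.185 for II, 0.067 for III, 0.042 for IV and 0.037 for V. On the 2 arrays the median over the members was 0.105 and 0.023, and on the control arrays it was -0.052 and 0.052, so that the second of these arrays lay within the range of the controls.

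SDHC stood at 9.90 and 10.45 under control mimics in MDA-MB-231, at 9.85 and 9.95 with hsa-miR-140-3p and at 9.31 and 9.19 with 5’isomiR-140-3p. It fell to 52.7% of the control level (-0.92 ± 0.17, adjusted p = 0.0075), with control arrays that lay further apart than the 0.115 between those of the median member. A second SDHC probe gave -0.46 ± 0.14 (adjusted p = 0.064). COX7A2L, which shares its name with complex IV but encodes a factor that joins complexes III and IV into supercomplexes, stood at 11.13 and 11.13 under control mimics, at 10.90 and 10.99 with hsa-miR-140-3p and at 10.53 and 10.44 with 5’isomiR-140-3p. It fell to 64.0% (-0.65 ± 0.12, adjusted p = 0.0085), and in MCF10A it stood at 10.80 and 11.01 under control mimics and at 10.54 and 10.51 with 5’isomiR-140-3p (-0.38 ± 0.12, adjusted p = 0.051).

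ATP5F1A, the alpha subunit of the catalytic head of ATP synthase, stood at 13.12 and 13.09 under control mimics in MDA-MB-231, at 13.23 and 13.17 with hsa-miR-140-3p and at 12.54 and 12.60 with 5’isomiR-140-3p. The alpha subunit was lower with the adjusted p alone, at 68.9% (-0.54 ± 0.10, adjusted p = 0.0095), and a second probe gave -0.60 ± 0.11 (adjusted p = 0.01). In MCF10A its difference was -0.14 ± 0.10 (adjusted p = 0.38). ATP5F1B, the beta subunit with which it alternates in the catalytic head, lay at -0.10 in MDA-MB-231 and at -0.18 in MCF10A and did not pass. UQCRC1, a core protein of complex III, was lower with the adjusted p alone at 70.8% (-0.50 ± 0.13, adjusted p = 0.031).

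When the second array of 5’isomiR-140-3p was left out in MDA-MB-231 cells, neither SDHC nor COX7A2L was called and the count was 0 members. Without mimic-ctrl2 of that line the count was 4, with NDUFB5 and NDUFA10 called higher, which is taken up below.

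**Figure D2:**
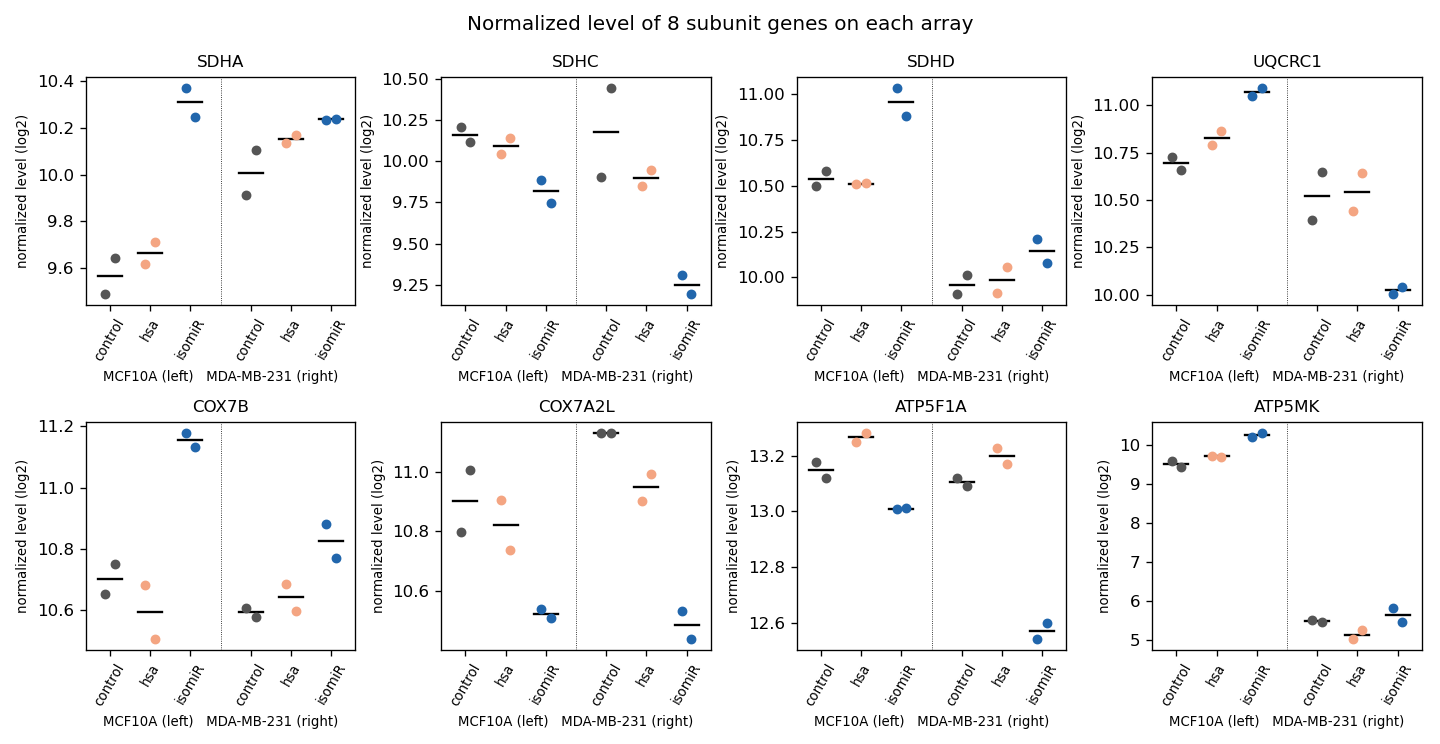
Normalized level (log2) of 8 subunit genes on each of the 12 arrays, with MCF10A on the left and MDA-MB-231 on the right of each panel. Points are arrays, bars are group means of 2 arrays, and each panel has its own axis, which does not start at 0. SDHC, COX7A2L and ATP5F1A lie lowest with 5’isomiR-140-3p in both lines, SDHA and SDHD lie highest with it in both lines, and UQCRC1 lies highest with it in MCF10A and lowest in MDA-MB-231.

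With the canonical hsa-miR-140-3p, which was compared with the same control arrays, no member passed the test. In MCF10A 0 members were called in either direction, against 0.724% of all genes lower and 0.143% higher, and in MDA-MB-231 0 members were called, against 1.02% and 0.191%. By limma without adjustment, 2 members had a p under 0.05 in MCF10A, which is 2.74% against 13.9% of all genes, and 3 members in MDA-MB-231, or 4.11% against 14.9%. The methods' t-test with the same fold limits also called 0 members, adjusted or not. After adjustment it also called none of the members that limma called for 5’isomiR-140-3p against control mimics, so that its adjusted count decides nothing here. With the adjusted p alone 0 members passed as well, against 0.734% of all genes lower and 0.2% higher in MCF10A, and 1.1% lower and 0.286% higher in MDA-MB-231. Both arrays of hsa-miR-140-3p lay above both control arrays for 20 members in MCF10A and below them for 13, or 27.4% and 17.8%, against 22.8% and 21.8% of all genes. In MDA-MB-231 these were 14 and 17 members, or 19.2% and 23.3%, against 21.4% and 22.2%. The median difference was 0.021 in MCF10A cells and 0.007 in MDA-MB-231 cells, and the lowest adjusted p of a member was 0.14 in MCF10A cells and 0.19 in MDA-MB-231 cells. In MCF10A the lowest value was -0.50 for NDUFA6, an accessory subunit of complex I, which stood at 8.78 and 9.11 under control mimics and at 8.48 and 8.41 with hsa-miR-140-3p. Among the complexes the medians lay between -0.027 in complex II and 0.054 in complex III in MCF10A, and between -0.022 in complex IV and 0.028 in complex II in MDA-MB-231. Where a member did not pass, its level was not shown to be unaffected. The call leaves out any effect under the fold limit, and 2 arrays in a group limit what the adjusted p can detect.

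The direct comparison of the mimics set the same 5’isomiR-140-3p arrays against those of hsa-miR-140-3p, so that it shares them with the comparison against the control mimics. In MCF10A the members had a median of 0.171 against -0.001 over all genes, and 61 of 73 lay above 0, or 83.6% against 49.8%. None was called, against 6.43% of all genes lower and 5.21% higher. By limma without adjustment 21 members had a p under 0.05, or 28.8% against 32.5% of all genes. The methods' t-test called 0, a count that decides nothing. After adjustment that test also called none of the members that limma called for 5’isomiR-140-3p against control mimics. With the adjusted p alone 10 members were higher and 0 lower, against 9.67% and 9.88%. The arrays of 5’isomiR-140-3p lay above those of hsa-miR-140-3p for 47 members and below them for 7, or 64.4% and 9.59%, against 32.5% and 33.1% of all genes. Of the 10 members that passed, SDHA (0.64 ± 0.12, adjusted p = 0.0053), SDHD, COX5B, COX7B, ATP5MC2, ATP5MJ and ATP5MK also passed against the control mimics. NDUFA1, NDUFA6 and ATP5F1E passed here alone, at 0.46, 0.48 and 0.50 (adjusted p = 0.033, 0.035 and 0.011), and hsa-miR-140-3p lay below the control mimics in each, at -0.21, -0.50 and -0.24. NDUFA1 is an accessory subunit of complex I and ATP5F1E is the epsilon subunit of ATP synthase.

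In MDA-MB-231 the median between the mimics was 0.025. ATP5F1A and SDHC were called lower, to 64.6% and 63.9% (-0.63 ± 0.10 and -0.65 ± 0.17, adjusted p = 0.0058 and 0.048), against 3.58% of all genes, and 0 members were called higher, against 1.45%. With the adjusted p alone COX7A2L and UQCRC1 joined them, which makes 4 lower, against 4.54% of all genes, and 0 higher, against 2.8%. The arrays of 5’isomiR-140-3p lay above those of hsa-miR-140-3p for 33 members, or 45.2% against 30.8%, and below them for 13, or 17.8% against 28.7%. The call of SDHC ended under 8 of 13 other settings and on leaving out any of 10 arrays, all but the control arrays of MDA-MB-231. That of ATP5F1A ended without the first array of either mimic, at -0.60 in both cases.

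The effects of 5’isomiR-140-3p in the lines were set against each other with an interaction term. Over the members the median of MDA-MB-231 minus MCF10A was -0.115 against -0.001 over all genes, and 58 of 73 members lay below 0. Above 0 lay 20.5% of the members against 49.9% of all genes. The median ranged from -0.184 to -0.084 with each array left out in turn and from -0.187 to -0.061 over the other alternatives. UQCRC1 alone was called, against 3.29% of all genes in that direction, and 0 members were called in the other, against 2.19%, and the adjusted p alone gave the same counts, against 3.29% and 2.27%. It stood at 10.73 and 10.66 under control mimics in MCF10A and at 11.05 and 11.10 with 5’isomiR-140-3p, and at 10.40 and 10.65 in MDA-MB-231 and then at 10.002 and 10.042. The arrays of 5’isomiR-140-3p thus lay above both controls in MCF10A (0.38 ± 0.13, adjusted p = 0.059) and below both in MDA-MB-231, and the effects differed by -0.88 ± 0.18 (adjusted p = 0.022). This call ended when mimic-ctrl2 of MCF10A or any of the 4 arrays of 5’isomiR-140-3p was left out, and over all 12 arrays left out in turn the difference ranged from -1.003 to -0.753. UQCRC2, the other core protein of complex III, showed 0.43 in MCF10A cells and -0.18 in MDA-MB-231 cells, with a difference of -0.61 that did not pass (adjusted p = 0.11).

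For SDHA, ATP5MC2 and COX5B, which passed in MCF10A, the difference between lines was -0.52, -0.53 and -0.48, and none passed (adjusted p = 0.12, 0.14 and 0.13). For SDHC it was -0.58 and for ATP5F1A -0.40 (adjusted p = 0.2 and 0.16). A difference between lines was thus not shown for any of these. With hsa-miR-140-3p 0 members and 0 genes of all were called in this contrast, where 1 member, or 1.37%, and 7.94% of all genes had an unadjusted p under 0.05 by limma.

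**Figure D3:**
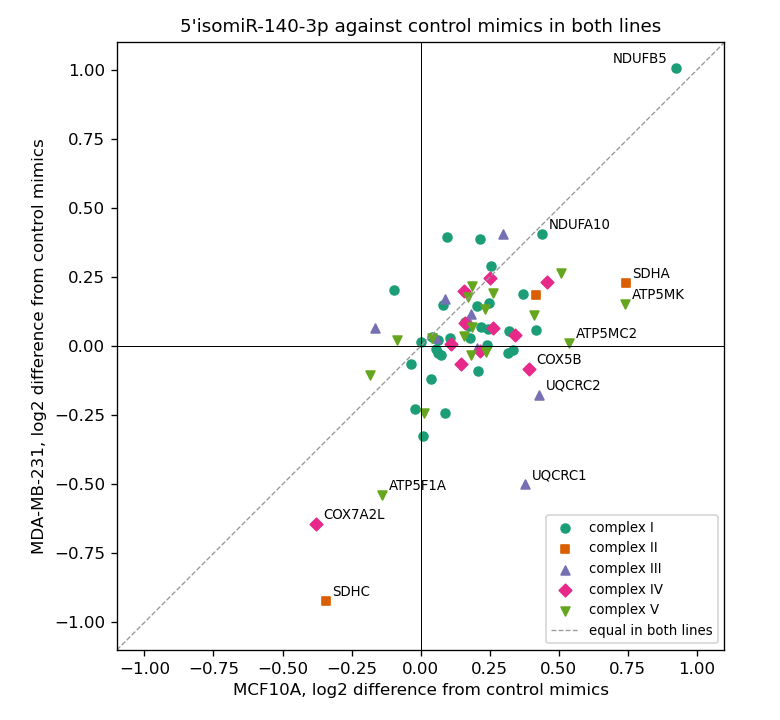
Log2 difference of 5’isomiR-140-3p from the control mimics in MCF10A (horizontal) and in MDA-MB-231 (vertical) for 73 subunit genes. Each point is 1 gene, its shape and colour give the complex, and the dashed line marks equal differences. Most points lie to the right of 0 and below the dashed line, and UQCRC1 lies at 0.38 in MCF10A cells and at -0.50 in MDA-MB-231 cells.

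In NDUFB5 and NDUFA10, accessory subunits of the membrane arm of complex I, the control mimics differed from each other. NDUFB5 stood at 11.44 with mimic-ctrl1 and at 11.85 with mimic-ctrl2 in MCF10A, and at 10.65 and 12.41 in MDA-MB-231. The other 4 arrays of MDA-MB-231 lay between 12.37 and 12.59, so that mimic-ctrl1 stood apart. With both controls NDUFB5 showed 0.92 ± 0.42 in MCF10A cells and 1.01 ± 0.42 in MDA-MB-231 cells with 5’isomiR-140-3p, and neither passed (adjusted p = 0.16 in both). Without the mimic-ctrl1 arrays the values were 0.72 and 0.13, and without the mimic-ctrl2 arrays 1.13 and 1.89. NDUFA10 stood at 9.01 and 9.41 in MCF10A and at 7.88 and 9.05 in MDA-MB-231 with the control mimics, while the other arrays of MDA-MB-231 lay between 8.80 and 9.02. In MDA-MB-231 cells its difference with 5’isomiR-140-3p was 0.41 ± 0.31 with both controls, -0.18 without mimic-ctrl1 and 0.99 without mimic-ctrl2. No direction is therefore given for these 2 genes in MDA-MB-231, nor for NDUFA10 in MCF10A. For NDUFB5 in MCF10A both 5’isomiR-140-3p arrays, at 12.68 and 12.46, lay above the other arrays of the line, the highest of which stood at 12.09. That difference did not pass with an SE that all groups share, the control arrays of MDA-MB-231 included. Over all members the median of mimic-ctrl2 minus mimic-ctrl1 was -0.036 in MCF10A cells and 0.103 in MDA-MB-231 cells, against 0.007 and -0.011 over all genes.

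Between the lines themselves, under control mimics, subunit genes were called in both directions, less often than all genes. MDA-MB-231 had 10 members called lower than MCF10A, against 19.9% of all genes, and 3 called higher, against 20.5%. With the adjusted p alone 19 were lower and 19 higher, against 26.4% and 29.8%. The control arrays of MDA-MB-231 lay above those of MCF10A for 27 members, or 37% against 38.5% of all genes, and below them for 32, or 43.8% against 34.8%. The median was -0.064, so that the members as a whole lay at about the same level, with a range from -4.01 to 1.11. By complex, 5 genes were called lower and 2 higher in complex I, 2 lower in complex III, and 3 lower and 1 higher in complex V, while complexes II and IV had none.

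The most divergent was ATP5MK, which stood at 9.59 and 9.44 in MCF10A and was at background on both control arrays of MDA-MB-231, at 5.52 and 5.48. It was at least 14.8-fold lower there (adjusted p = 1.7e-08), a bound set against the lowest signal above background. Of the other 4 arrays of MDA-MB-231 only 1, with 5’isomiR-140-3p, lay above background. NDUFB9, an accessory subunit of complex I, stood at 11.46 and 11.38 in MCF10A and at 8.60 and 8.97 in MDA-MB-231, which is 16.1% of the level in MCF10A (-2.63 ± 0.16, adjusted p = 4.2e-07). The other 4 arrays of MDA-MB-231 lay between 8.87 and 9.19, and all other MCF10A arrays between 11.11 and 11.71, so that the lines did not overlap under any mimic. Each of these genes had 1 probe, so that no second probe bears on the difference, and a sequence difference under a probe was not tested.

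ATP5F1D, the delta subunit of the ATP synthase head, stood at 12.05 and 12.07 in MCF10A and at 10.93 and 11.16 in MDA-MB-231 (49.4%, adjusted p = 8e-05). Its partner in the central stalk, ATP5F1E, went the other way, from 10.89 and 10.83 to 11.55 and 11.66 (1.67-fold, adjusted p = 0.00024). In complex I, NDUFB6 and NDUFA12, both accessory subunits, were 2.16-fold and 2.12-fold higher in MDA-MB-231 (adjusted p = 2.3e-05 and 3.1e-05). NDUFB6 stood at 10.52 and 10.66 in MCF10A and at 11.63 and 11.77 in MDA-MB-231, and NDUFA12 at 11.48 and 11.31 and then at 12.43 and 12.54.

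Further members were lower in MDA-MB-231. In complex I, NDUFV3, NDUFA7, NDUFB10 and NDUFS7, the last a core subunit with an iron-sulfur cluster, were at 53.6%, 60.3%, 62.1% and 64.8% of the MCF10A level. In complex III, UQCRC2 was at 59.9% and CYC1, which is cytochrome c1 and carries electrons to cytochrome c, at 62.9%. CYC1 stood at 12.93 and 12.93 in MCF10A and at 12.25 and 12.26 in MDA-MB-231, a narrow spread on both sides (-0.67 ± 0.10, adjusted p = 0.00035). ATP5MC3, another gene for subunit c, was at 57.5%, whereas ATP5MC2 was higher with the adjusted p alone (1.36-fold, adjusted p = 0.016) and ATP5MC1 did not pass, at 0.07. NDUFV3 and ATP5MC3 were dim, with levels of 5.84 to 7.58 on the control arrays, and without background correction neither was called. The brighter ATP5F1E and NDUFS7 were not called without it either. With the values as deposited NDUFV3, ATP5MC3, NDUFS7 and UQCRC2 were not called, and with median scaling NDUFS7 was not. Without the mimic-ctrl1 arrays NDUFV3, NDUFA7, NDUFB10, NDUFS7 and UQCRC2 were not called, at -0.53, -0.50, -0.57, -0.45 and -0.57, and without the mimic-ctrl2 arrays ATP5F1E was not, at 0.66. Leaving out mimic-ctrl1 of MDA-MB-231 by itself ended the calls of NDUFA7, NDUFB10, NDUFS7 and UQCRC2, leaving out mimic-ctrl1 of MCF10A that of NDUFS7, leaving out mimic-ctrl2 of MCF10A those of ATP5MC3, at -0.53, and ATP5F1E, and leaving out mimic-ctrl2 of MDA-MB-231 that of ATP5F1E.

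**Figure D4:**
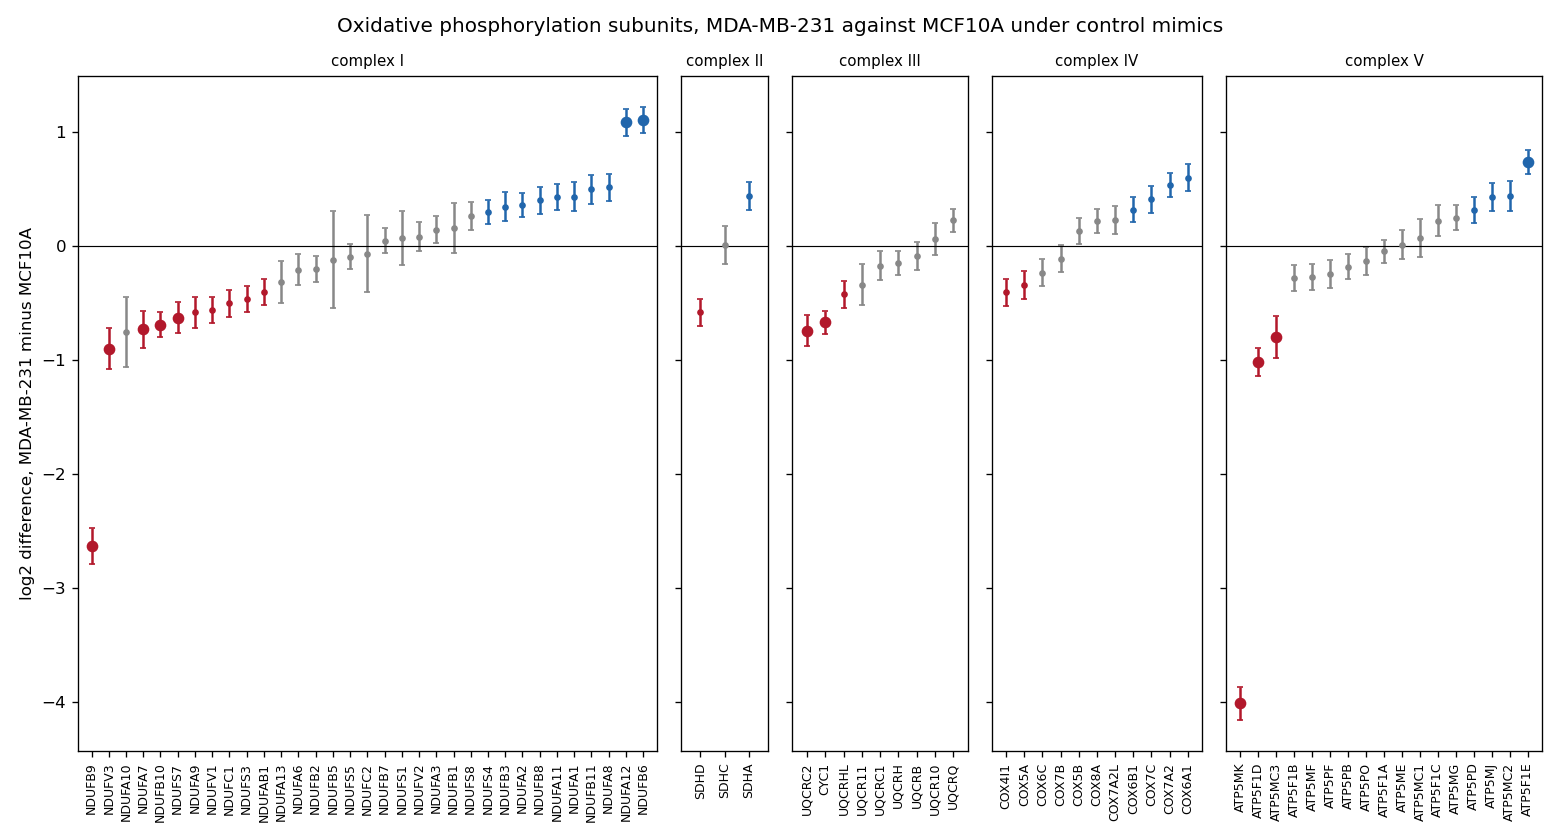
Log2 difference of MDA-MB-231 from MCF10A under control mimics for the 73 tested subunit genes, ordered within each complex. Points are fitted differences with their standard error, colour marks an adjusted p under 0.05 (blue higher, red lower), and large points are the 13 called genes. ATP5MK and NDUFB9 lie lowest, at -4.01 and -2.63.

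Members not tested were at background on every array. COX4I2, COX6A2, COX6B2, COX7A1 and COX7B2, isoforms of complex IV subunits that are known from lung, heart, skeletal muscle or testis, were at background, while their widely expressed counterparts COX4I1, COX6A1, COX6B1, COX7A2 and COX7B lay above background on all arrays. NDUFA5, NDUFB4 and NDUFS6 were at background as well, with deposited intensities of 81.6 to 128. NDUFS6 and NDUFA5 are constitutive subunits of complex I, so that these probes say nothing about the presence of the transcripts. NDUFB1, NDUFC2 and ATP5MK were above background on 11, 8 and 7 of 12 arrays.

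In some genes the probes did not give the same value. UQCR10, a small subunit of complex III, showed 0.30 with its brightest probe and 0.88 ± 0.14 (adjusted p = 0.0024) with another for 5’isomiR-140-3p in MCF10A. The brightest probe of UQCRH, the hinge protein of complex III, differed between lines by -0.15 and another by -1.06 ± 0.16 (adjusted p = 0.00026). UQCRHL is a near copy of UQCRH, and signals of the pair are uncertain. For 5’isomiR-140-3p against control mimics in MCF10A cells, the probes differed in sign in 5 members. UQCRB showed 0.17 with its brightest probe and -0.58 with another, ATP5MG 0.23 and -0.23, NDUFV3 0.26 and -0.42, ATP5F1D 0.01 and -0.07, and ATP5F1A -0.14 and 0.06, and none of these passed. In the first 4 the brightest probe counts among the 64 members above 0. No member had probes that passed in opposite directions for a mimic.

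Among genes that serve the respiratory chain without being subunits, several fell in both lines when 5’isomiR-140-3p was given. Of 49 tested assembly factors, 4 were called lower and 1 higher in MCF10A, and 4 lower and 1 higher in MDA-MB-231, near the background of 7.34% and 5.25%, and of 5.09% and 2.41%, and the median was 0.024 and 0.002. COX17, a copper chaperone for complex IV, stood at 11.83 and 11.67 under control mimics in MCF10A and at 11.03 and 11.12 with 5’isomiR-140-3p, and at 11.51 and 11.66 and then at 10.73 and 10.70 in MDA-MB-231 (62.7% and 54.6%, adjusted p = 0.003 and 0.0014). COA7, also needed for complex IV, fell to 64.0% and 62.8%, and NDUFAF6, an assembly factor of complex I, to 51.6% and 63.5%. ACAD9, an assembly factor of complex I, fell to 61.8% in MDA-MB-231, and TMEM70, which serves ATP synthase assembly, to 40.2% in MCF10A. The genes called higher were ATPAF2 in MCF10A and NDUFAF8 in MDA-MB-231. The list was chosen with results of these arrays known.

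TFAM, which packages mitochondrial DNA and starts its transcription, stood at 10.32 and 10.45 under control mimics in MCF10A, at 10.52 and 10.57 with hsa-miR-140-3p and at 9.17 and 9.39 with 5’isomiR-140-3p. Its levels in MDA-MB-231 stood at 9.84 and 10.02, at 10.06 and 10.24 and at 8.75 and 8.74. It fell to 46.3% and 44.2% of the control level (adjusted p = 0.00038 and 0.00049), and the 5’isomiR-140-3p arrays did not overlap with any other array of their line. TFAM was the only one of 16 tested transcription factors and coactivators of respiratory genes that was called in MCF10A, against 7.34% of all genes lower. In MDA-MB-231 PPARGC1A, the coactivator PGC-1 alpha, fell as well, to 49.0% (adjusted p = 0.0081), and it was above background on the 6 arrays of that line only. It stood at 6.71 and 7.15 under control mimics, at 5.75 and 6.29 with hsa-miR-140-3p, which was not called, and at 5.82 and 5.98 with 5’isomiR-140-3p, so that the arrays of both mimics lay below the controls and overlapped with each other.

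Of 18 electron carriers and their partners, 4 were called higher and 0 lower when MCF10A cells received 5’isomiR-140-3p, against 5.25% and 7.34% of all genes. They were ETFB, a subunit of the electron transfer flavoprotein, and COQ8A, COQ8B and COQ9, which take part in ubiquinone synthesis, at 197%, 175%, 193% and 167% of the control level. None of them was called against hsa-miR-140-3p, where COQ5 was the only one of the list, and COQ8A stood at 8.99 and 9.09 under control mimics, at 9.69 and 9.67 with hsa-miR-140-3p and at 9.80 and 9.89 with 5’isomiR-140-3p. ETFDH alone was called in MDA-MB-231, at 61.3%. Of the 15 tested genes of the tricarboxylic acid cycle and the 7 carriers of nucleotides and phosphate, 0 were called against control mimics in either line by limma. The methods' t-test after adjustment called 0 as well. It called 0 in every list for every mimic, the list with TFAM included, so that its count cannot tell these genes apart. Over all genes limma called 7.34% lower and 5.25% higher with 5’isomiR-140-3p in MCF10A cells, and in the other line 5.09% and 2.41%. With 5’isomiR-140-3p, an unadjusted p under 0.05 in limma was found for 7 genes of the cycle in MCF10A, 2 lower and 5 higher, and for 4 in MDA-MB-231, 3 lower and 1 higher, and for 2 and 1 of the carriers, against 34.2% and 26.5% of all genes. The median over the cycle was 0.202 in MCF10A cells and -0.115 in MDA-MB-231 cells. Among the members, 0 of the 6 with twin cysteine motifs, which are oxidized on import by CHCHD4, and 0 of the 6 core subunits of complex I were called, with medians of 0.161 and 0.164 in MCF10A and of 0.006 and -0.018 in MDA-MB-231. An unadjusted p under 0.05 in limma was found with 5’isomiR-140-3p for 0 of the former and for 1 of the latter in each line. The methods' t-test called 0 here as well, which decides nothing for the same reason. COXFA4, formerly NDUFA4, showed 0.21 in MCF10A cells and 0.09 in MDA-MB-231 cells with 5’isomiR-140-3p and did not pass.

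**Figure D5:**
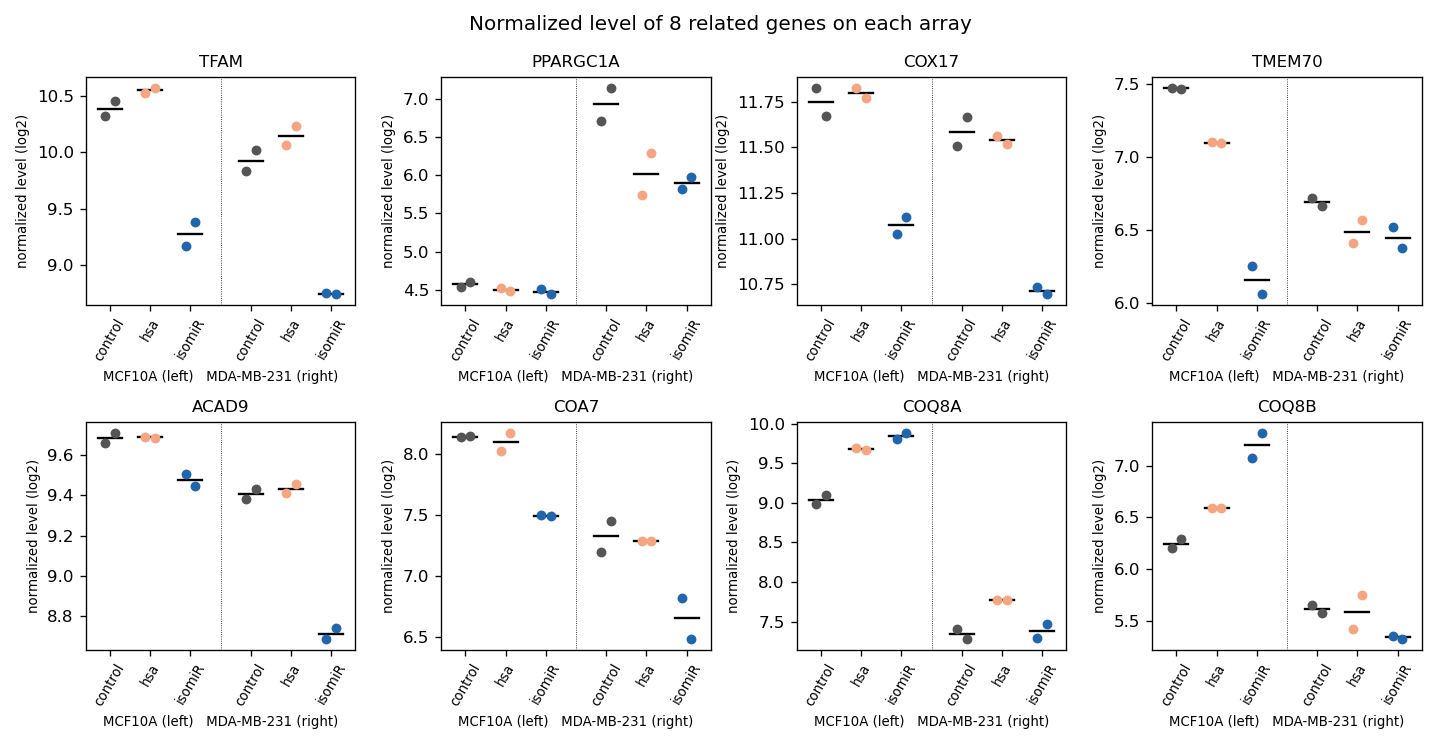
Normalized level (log2) of 8 genes that serve the respiratory chain on each of the 12 arrays, with MCF10A on the left and MDA-MB-231 on the right of each panel. Points are arrays, bars are group means of 2 arrays, and each panel has its own axis, which does not start at 0. TFAM, COX17 and COA7 lie lowest with 5’isomiR-140-3p in both lines, and COQ8A and COQ8B lie highest with it in MCF10A.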

How the data were processed

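Probe intensities on a linear scale were deposited by the authors for 12 arrays, 1 column per sample, normalized by a method not given in the sources used here (71.3 to 23648, array medians 107 to 109). Signals before normalization in 24 columns that match no sample label were not used. Of 47323 probes, 4 with missing values were left out. Probes with 1 gene (30111) took current symbols by gene ID.

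In R 4.3.3 with limma 3.58.1, normexp correction (offset 16) with 457 olfactory receptor probes as negative controls was followed by quantile normalization and log2. A probe had to exceed the 0.99 quantile of those controls on 2 or more arrays, and each gene was represented by its brightest such probe in a fit of 6 group means (6 residual and 3.79 prior degrees of freedom). The fit was tested on simulated data. The limit of 65% of the control level follows the study's methods, and that of 65% above it follows the study's list of higher genes. On the log2 scale these limits are unequal, and a gene must move further to be called higher than to be called lower. Alternatives were other background correction, scaling, filters, probe summaries and moderation, each line alone, the adjusted p alone, the t-test of the methods, a replicate block and each array left out. The number of arrays limits the precision.

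Named are all called members, the extremes of each complex, isoform pairs of complex IV, members whose probes pass in opposite directions (none did), those with the largest difference between lines, and called members of related lists. NDUFB5, NDUFA10, the members with unlike probes and the promoter examples were singled out after their values were seen. Members, lists and tests were chosen with earlier results of these arrays known. The alternatives that leave out mimic-ctrl1 or mimic-ctrl2 in both lines, the 8 mimic arrays without a block, the brighter genes and COXFA4 were added after seeing the data.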

Additional observations from a re-analysis of the deposited data

Results flagged for a closer look

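For 5 genes among the members and the related lists, the effect of 5’isomiR-140-3p differed between the lines. The differences come from the interaction term of limma, given as MDA-MB-231 minus MCF10A on the log2 scale. They were 1 of 73 members, 1 of 49 assembly factors, 2 of 18 electron carriers and their partners and 1 of 7 carriers of nucleotides and phosphate. Of the 16 transcription factors and coactivators and the 15 genes of the tricarboxylic acid cycle, 0 were called. Over all genes 3.29% were called lower and 2.19% higher in this contrast, and the count of 5 was not tested against that share. Among the members this was UQCRC1, at -0.88 ± 0.18 (SE, adjusted p = 0.022). Among the related genes, TMEM70 differed by 1.07 ± 0.17 (adjusted p = 0.0072), with levels of 7.48 and 7.47 under control mimics and 6.26 and 6.06 with 5’isomiR-140-3p for MCF10A, and of 6.72 and 6.66 and then 6.52 and 6.38 in MDA-MB-231. COQ8A differed by -0.76 ± 0.16 (adjusted p = 0.026), from 8.99 and 9.09 to 9.80 and 9.89 in MCF10A and from 7.41 and 7.28 to 7.29 and 7.47 in MDA-MB-231. COQ8B differed by -1.23 ± 0.20 (adjusted p = 0.0076) and lay above background on 8 of 12 arrays. CKMT1A, a mitochondrial creatine kinase whose near copy CKMT1B shares its sequence, differed by -0.78 ± 0.19 (adjusted p = 0.04), and it lay above background on the 6 MCF10A arrays only, so that its value in MDA-MB-231 is that of background.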

How the results depend on the processing

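Members with an adjusted p under 0.05 for a mimic, or called between the lines, kept their sign in that comparison under all alternatives run, while NDUFA10, which did not pass, changed its sign. The median over the members for 5’isomiR-140-3p in MCF10A stayed between 0.175 and 0.203. That for hsa-miR-140-3p changed its sign in MDA-MB-231 cells, from -0.047 to 0.043 around 0.007, as did its difference between lines, from -0.086 to 0.051 around -0.05. Counts of called members moved as follows, and the cause was not tested. For 5’isomiR-140-3p against control mimics, 2 members were called in MCF10A cells and 2 in MDA-MB-231 cells. These became 0 and 1 without background correction, 0 and 1 with the deposited values, 9 and 4 with the adjusted p alone, and 0 and 0 with the methods' t-test after adjustment, which called 1 in MDA-MB-231 without it. The mean of all probes gave 1 in MCF10A. Between the mimics in MCF10A the adjusted p alone gave 10 in place of 0. In MDA-MB-231 the 2 calls became 1 without background correction, without a filter, with a looser filter, with the mean of probes or with each line fitted alone, 0 with median scaling, with the deposited values or with the adjusted t-test, and 4 with the adjusted p alone. Between the lines, 13 became 38 with the adjusted p alone and 2 with the t-test. The difference of the 5’isomiR-140-3p effect between lines had 1 call, and 2 without background correction.

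Leaving out both mimic-ctrl1 arrays gave 1 call for 5’isomiR-140-3p in MCF10A, 1 for hsa-miR-140-3p in MCF10A, where NDUFA6 was lower, and 3 for the difference between lines. Leaving out both mimic-ctrl2 arrays gave 4 and 2 in MDA-MB-231, with NDUFB5 and NDUFA10 among them, and 0 for the difference between lines. Leaving out each array in turn gave 1 to 3 calls for 5’isomiR-140-3p in MCF10A and 0 to 4 in MDA-MB-231, 0 and 0 to 2 for hsa-miR-140-3p, 0 and 0 to 2 between the mimics, 10 to 16 between the lines, and 0 to 3 and 0 for the differences between lines. A lone array was assumed to vary like the other groups.

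With the replicate number as a block on the 8 mimic arrays the counts between the mimics were 0 in MCF10A cells and 2 in MDA-MB-231 cells, and the same without the block. Deviations of arrays that share a number correlated at 0.021 and -0.021 over 2 pairs in each line, so that the numbers were not taken as a pairing.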
